A study of Mus musculus with 8 samples.

Results

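The change in AGO2-associated RNA on loss of miR-379 was examined beyond the change in total RNA, in primary mouse mesangial cells (MMC). For each gene the quantity was the AGO2-IP change (miR-379KO AGO2-IP less WT AGO2-IP) less the total RNA change (miR-379KO total RNA less WT total RNA), on the log2 scale of CPM, counts scaled to a common library total. It is called the interaction here, and a positive value means that AGO2-IP moved up relative to total RNA in miR-379KO MMC. Genes were kept when they had a mean of at least 200 counts over the 4 total RNA libraries and at least 20 over the 4 AGO2-IP libraries, which left 7768 of 24639 gene entries, called members. The rule used abundance over all libraries and not the interaction itself. A gene could still meet the AGO2-IP minimum through 1 genotype alone, as Idi1 did through miR-379KO and Dhcr7, Ndufb7 and Mrpl12 through WT. Rn45s and Lars2, which took most AGO2-IP gene counts, were left out of the library totals behind CPM.

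The 8 libraries fell into 4 groups of 2 replicates (A and B): total RNA and AGO2-IP, each from WT and from miR-379KO cells. All were from untreated MMC grown from kidney glomeruli of C57BL/6J mice in RPMI medium with foetal bovine serum, and the genotypes were wild type and miR-379 knockout. The knockout was a small germline deletion at miR-379, made with CRISPR-Cas9 nickase, so it was present in every cell and throughout development. The study calls A and B independent samples but the sources do not say whether they were separate animals or cultures, or whether a letter joins a total RNA library to an AGO2-IP library, so p-values measure only the spread between these samples.

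AGO2 is an Argonaute protein and the core of the RNA-induced silencing complex. A microRNA loaded into AGO2 guides the complex to messenger RNAs, mostly through pairing of its seed to the 3′-UTR, and the bound transcript is then repressed in translation or decays. RNA recovered with anti-AGO2 beads therefore holds transcripts bound by many microRNAs at the same time, and its amount also follows how much of the transcript the cell holds, which is why the total RNA change is taken off. miR-379 is the first microRNA of a large cluster on chromosome 12, and mesangial cells are the contractile, matrix-producing support cells of the glomerulus.

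The mature sequence of miR-379-5p is shown because its seed (bases 2 to 8, in capitals) defines the sites searched below. It lies on the plus strand at chr12:109709065-109709085 (GRCm38.p6; RefSeq).
miR-379-5p: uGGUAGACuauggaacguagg

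Of the 12 genes that the study used as candidate targets or negative controls, 4 carried a match to at least the 6-base core of that seed in the longest RefSeq 3′-UTR. The windows around their best match are shown with the matched bases in capitals, at chr5:136966111-136966132 (Fis1, plus strand), chr1:151821008-151821029 (Edem3, plus strand), chr4:57943766-57943787 (Txn1, minus strand) and chr19:6982552-6982573 (Vegfb, minus strand). Cep290 (chr10:100573843-100573864, plus strand) and Btg2 (chr1:134076766-134076787, minus strand) follow, because these carried the same GTCTACC match as Fis1 and Edem3 and lay at opposite ends of the interaction.
Fis1: cctgcacccctgtaGTCTACCt
Edem3: tttagaaacatctgGTCTACCt
Txn1: caataaaatattaatTCTACCc
Vegfb: tgaaaaccccaaactTCTACCA
Cep290: ggtccactgtaaggGTCTACCt
Btg2: tgtctcgtttctgaGTCTACCc

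The libraries differed in ways that touch every value below. Without Rn45s and Lars2, total RNA libraries held 15524220 to 21343458 counts and AGO2-IP libraries 1875037 and 1605632 for WT and 1308149 and 1115782 for miR-379KO. The 7768 genes took 96.2% to 96.9% of the total RNA counts, 85.4% and 89.7% of the WT AGO2-IP counts, and 78.6% and 76.1% of the miR-379KO AGO2-IP counts. Protein-coding genes with no count in any total RNA library, used here as a gauge of background, held 1.35 and 0.913 counts per kb of exon in WT AGO2-IP and 3.08 and 3.52 in miR-379KO AGO2-IP. Spread over exon length, that background was a median of 5.30% of a member's WT AGO2-IP counts and 21.3% of its miR-379KO AGO2-IP counts, and it passed 25% of the latter for 3117 of 7758 members with an exon length. Values after its subtraction are therefore given beside the results. Among total RNA libraries, WT A stood apart from WT B (chi-square per degree of freedom over genes 95, compared to 36.4 for the miR-379KO pair). Mir379 itself had 0 counts in all total RNA libraries and 0, 4, 1 and 0 in WT A, WT B, miR-379KO A and miR-379KO B AGO2-IP, too few to check the labels.

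Over the 7768 genes AGO2-IP and total RNA changes were mostly small and the interaction was spread on both sides of 0. Its median was 0.08, with an interquartile range of −0.25 to 0.45 and 5th and 95th percentiles of −0.68 and 1.05. The AGO2-IP change carried more of the spread (5th to 95th percentile −0.61 to 0.85) than the total RNA change (−0.45 to 0.25). In edgeR's quasi-likelihood test with Benjamini-Hochberg adjustment over all 18193 genes tested, 8 of the 7768 genes passed an adjusted p-value of 0.05, or 0.103%, and all 8 had a positive interaction. Over all genes tested the share was 0.17%, so passing genes were not more common here than elsewhere. No gene passed with a negative interaction.

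By the study's thresholds, 1.5-fold with an unadjusted p-value under 0.05, the interaction was higher in miR-379KO for 658 genes and lower for 171, or 829 in all. The background over all genes tested was 12.9% higher and 1.06% lower, compared to 8.47% and 2.2% of the 7768 genes. AGO2-IP to total RNA ratios of the genotypes did not overlap, under any pairing of libraries, for 1363 genes on the higher side (17.5%, background 38.2%) and 670 on the lower side (8.63%, background 4.14%). The split between directions depended on scaling. TMM factors over all tested genes turned 658 higher and 171 lower into 61 and 1895, RLE factors into 200 and 760, and TMM factors on the 7768 genes alone into 461 and 282, with the member median at −0.52, −0.24 and −0.02. Leaving Rn45s and Lars2 in the totals gave 1801 higher and 8 lower with a median of 0.61, and an offset for exon length and GC content gave 10 and 4011 with a median of −0.83. For this reason genes and groups are described below against the median of the 7768 genes.

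In most genes past the cutoff the AGO2-IP change was larger than the total RNA change. Of the 658 higher genes, 601 had an AGO2-IP change larger than their total RNA change and 582 had the assays moving in opposite directions. Of the 171 lower genes the AGO2-IP change was the larger in 154. Subtraction of the background lowered the median of the 658 from 1.06 to 0.73 and turned the sign of 8, and it moved the median of the 171 from −0.92 to −1.12 with none turned. These medians describe genes chosen by the same contrast.

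**Figure D1:**
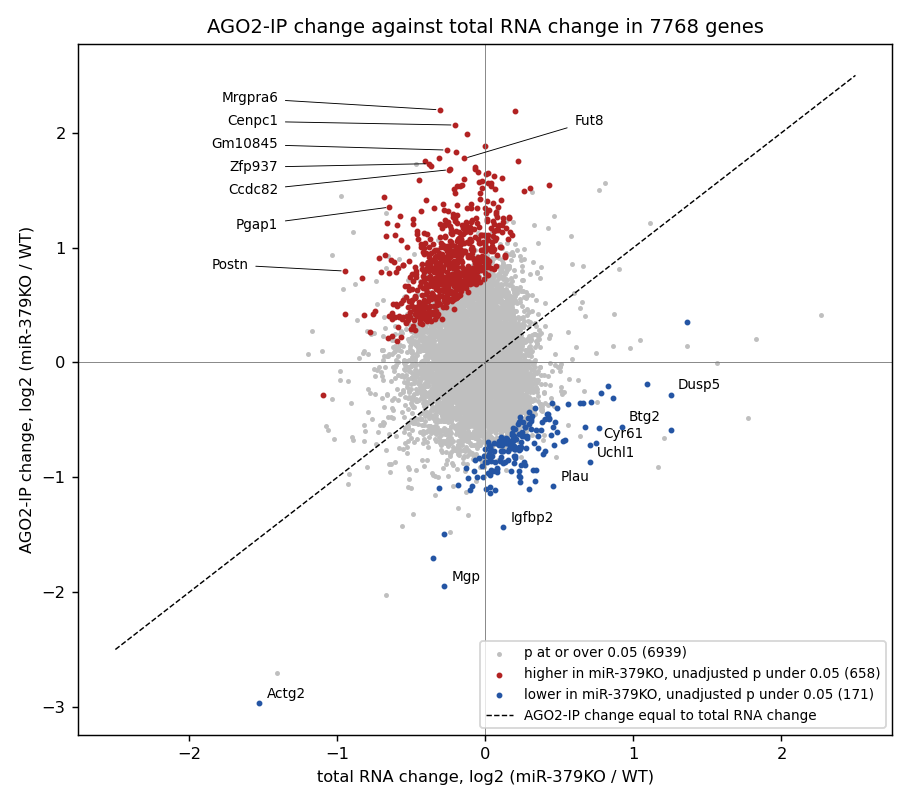
Each point is 1 of 7768 genes, with the total RNA change on the x axis and the AGO2-IP change on the y axis (log2, miR-379KO over WT). Red and blue points had an unadjusted edgeR p-value under 0.05 above (658) or below (171) the dashed line of equal change, and the named genes are the 8 that passed the adjusted threshold and the 8 lowest by the naming rule.

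The 8 genes with the largest positive interactions by the naming rule held more CPM in AGO2-IP than in total RNA on average, already in WT MMC. That rule asked for at least 50 mean AGO2-IP counts, an unadjusted edgeR p-value under 0.05 and AGO2-IP to total RNA ratios that did not overlap. The separation of the ratios was therefore set by the choice of genes. Mrgpra6, of the Mas-related G-protein-coupled receptor family and annotated by RefSeq as a transcribed pseudogene (chromosome 7, 47185717 to 47189416, minus strand), had 60.2 (A) and 38.7 (B) CPM in WT total RNA, with 41.7 and 38.1 for miR-379KO. In AGO2-IP it had 7528 and 7542 CPM with WT and 30629 and 38621 with miR-379KO. The total RNA libraries overlapped and the AGO2-IP libraries did not, with an interaction of 2.51 ± 0.46 (SE, edgeR adjusted p-value 0.0329). Only uniquely placed reads were counted, so genes of families with near-identical copies, this one and the zinc-finger genes below, are uncertain.

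Cenpc1, which encodes the kinetochore protein CENP-C (chromosome 5, 86012018 to 86065962), followed the same pattern. Total RNA held 40.3 and 28.3 CPM with WT and 30.5 and 28.8 with miR-379KO, and AGO2-IP held 319 and 235 CPM with WT and 941 and 1385 with miR-379KO. AGO2-IP values of the genotypes lay well apart while total RNA overlapped (interaction 2.28 ± 0.40, edgeR adjusted p-value 0.0287). Gm10845, a long non-coding RNA on chromosome 14, had 182 and 124 CPM for WT AGO2-IP and 477 and 629 for miR-379KO AGO2-IP, whereas the total RNA libraries held 24.2, 23.6, 22.4 and 17.4. Its miR-379KO values were the lower in total RNA and the higher in AGO2-IP, with no overlap in either assay (interaction 2.11 ± 0.37, edgeR adjusted p-value 0.0287).

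Zfp937, a zinc-finger gene on chromosome 2, had 65.1 and 44.8 CPM for WT AGO2-IP and 156 and 211 for miR-379KO AGO2-IP, while its total RNA was 18.9 and 14.4 CPM with WT and 12.8 and 12.7 with miR-379KO. Neither assay overlapped and the assays moved in opposite directions (interaction 2.11 ± 0.36, edgeR adjusted p-value 0.0287). The zinc-finger genes Zfp994 and Zfp277 had interactions of 2.17 ± 0.48 and 1.99 ± 0.40 and did not pass (edgeR adjusted p-values 0.0757 and 0.0521). Zfp277 had 75.7 and 53.6 CPM for WT AGO2-IP and 229 and 364 for miR-379KO AGO2-IP, with overlapping total RNA (16.1 and 24.1 compared to 20.2 and 26.1 CPM).

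Pgap1, an endoplasmic reticulum enzyme that remodels GPI anchors, had 35.7 and 32.4 CPM for WT AGO2-IP and 80.3 and 94.1 for miR-379KO AGO2-IP, and 18.6 and 12.3 compared to 9.98 and 9.72 CPM in total RNA. Its groups did not overlap in either assay, and the interaction of 2.0 ± 0.37 passed (edgeR adjusted p-value 0.0329), with 1.74 after background subtraction. Cep290, a protein of the ciliary transition zone, did not pass (interaction 2.08 ± 0.45, edgeR adjusted p-value 0.0654), although its AGO2-IP values of 28.3 and 31.8 CPM in WT lay below the 84.1 and 113 in miR-379KO. Postn, which encodes the matrix protein periostin, combined lower total RNA (21.3 and 22.8 CPM in WT, 11.8 and 11.1 in miR-379KO) with higher AGO2-IP (45.3 and 58.5 in WT, 95.6 and 84.2 in miR-379KO). Neither assay overlapped and the interaction was 1.75 ± 0.34 (edgeR adjusted p-value 0.0404).

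Ccdc82 and Fut8 also passed, and lay outside the naming rule, so they were named after their values were seen. Fut8, the enzyme of core fucosylation of N-glycans, had 100.3 and 95.3 CPM for WT AGO2-IP and 307 and 364 for miR-379KO AGO2-IP, with 50.4, 34.3, 40.6 and 36.0 CPM in the total RNA libraries (interaction 1.92 ± 0.35, edgeR adjusted p-value 0.0324). Ccdc82, a coiled-coil protein gene, had 372 and 298 CPM for WT AGO2-IP and 920 and 1227 for miR-379KO AGO2-IP (interaction 1.92 ± 0.38, edgeR adjusted p-value 0.0445). In both, AGO2-IP separated the genotypes.

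These 8 calls depended on single libraries. Leaving out WT AGO2-IP A, WT AGO2-IP B, miR-379KO AGO2-IP B or miR-379KO total RNA B left 0 of the 8 past the threshold, leaving out miR-379KO total RNA A left 4, leaving out miR-379KO AGO2-IP A left 7, and leaving out either WT total RNA library left 8. The fit on the 7768 genes alone called 0 (smallest adjusted p-value 0.0952) with 809 at the study's cutoff. The interaction of the 8 highest genes by the naming rule stayed above the member median in all 26 alternatives, by at least 1.10 for Pgap1 and 1.92 for Mrgpra6.

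The lowest interactions by the same naming rule included secreted, cytoskeletal and early-response genes, and none passed the adjusted threshold in edgeR. Mgp, matrix Gla protein, an inhibitor of calcification, had 161 and 254 CPM for WT AGO2-IP and 53.5 and 53.8 for miR-379KO AGO2-IP. Its total RNA of 499 and 220 CPM in WT enclosed the 260 and 333 in miR-379KO (interaction −1.67 ± 0.50, edgeR adjusted p-value 0.19). Igfbp2, which binds insulin-like growth factors, had 639 and 755 CPM in WT AGO2-IP compared to 368 and 146 in miR-379KO AGO2-IP. Its total RNA was 762, 629, 787 and 725 CPM, so only AGO2-IP separated the genotypes (interaction −1.56 ± 0.47).

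Plau, urokinase plasminogen activator, and Uchl1, a deubiquitinating enzyme, had higher total RNA and lower AGO2-IP values in miR-379KO. Plau had 112 and 99.7 CPM for WT total RNA and 169 and 122 for miR-379KO total RNA, but 85.3 and 73.5 CPM for WT AGO2-IP and 44.3 and 30.5 for miR-379KO AGO2-IP (interaction −1.54 ± 0.37, edgeR adjusted p-value 0.0923). Uchl1 had 111 and 91.9 compared to 154 and 176 CPM in total RNA, and 34.7 and 67.9 compared to 31.3 and 24.2 CPM in AGO2-IP (interaction −1.57 ± 0.41, edgeR adjusted p-value 0.128). For both genes the genotypes did not overlap in either assay.

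Actg2, smooth-muscle gamma-actin, was lower in miR-379KO in both assays, and more so in AGO2-IP. It had 757 and 637 CPM for WT total RNA and 156 and 328 for miR-379KO, against 315 and 397 CPM for WT AGO2-IP and 52.0 and 38.5 for miR-379KO AGO2-IP (interaction −1.44 ± 0.46). Dusp5, a phosphatase of ERK, Btg2, an antiproliferative early-response gene, and Cyr61, a matrix-associated signalling protein, are all induced early by growth signals. Cyr61 had 611 and 1101 CPM with WT and 1674 and 1201 with miR-379KO total RNA, and 1114 and 950 compared to 648 and 619 CPM in AGO2-IP, with no overlap in either (interaction −1.45 ± 0.43). Dusp5 had 20.7 and 30.2 compared to 76.2 and 44.9 CPM in total RNA, while AGO2-IP overlapped (interaction −1.53 ± 0.43). Btg2 overlapped in total RNA (105 and 243 compared to 443 and 217 CPM) and did not in AGO2-IP (90.7 and 99.0 compared to 71.1 and 57.4 CPM), with an interaction of −1.48 ± 0.62.

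**Figure D2:**
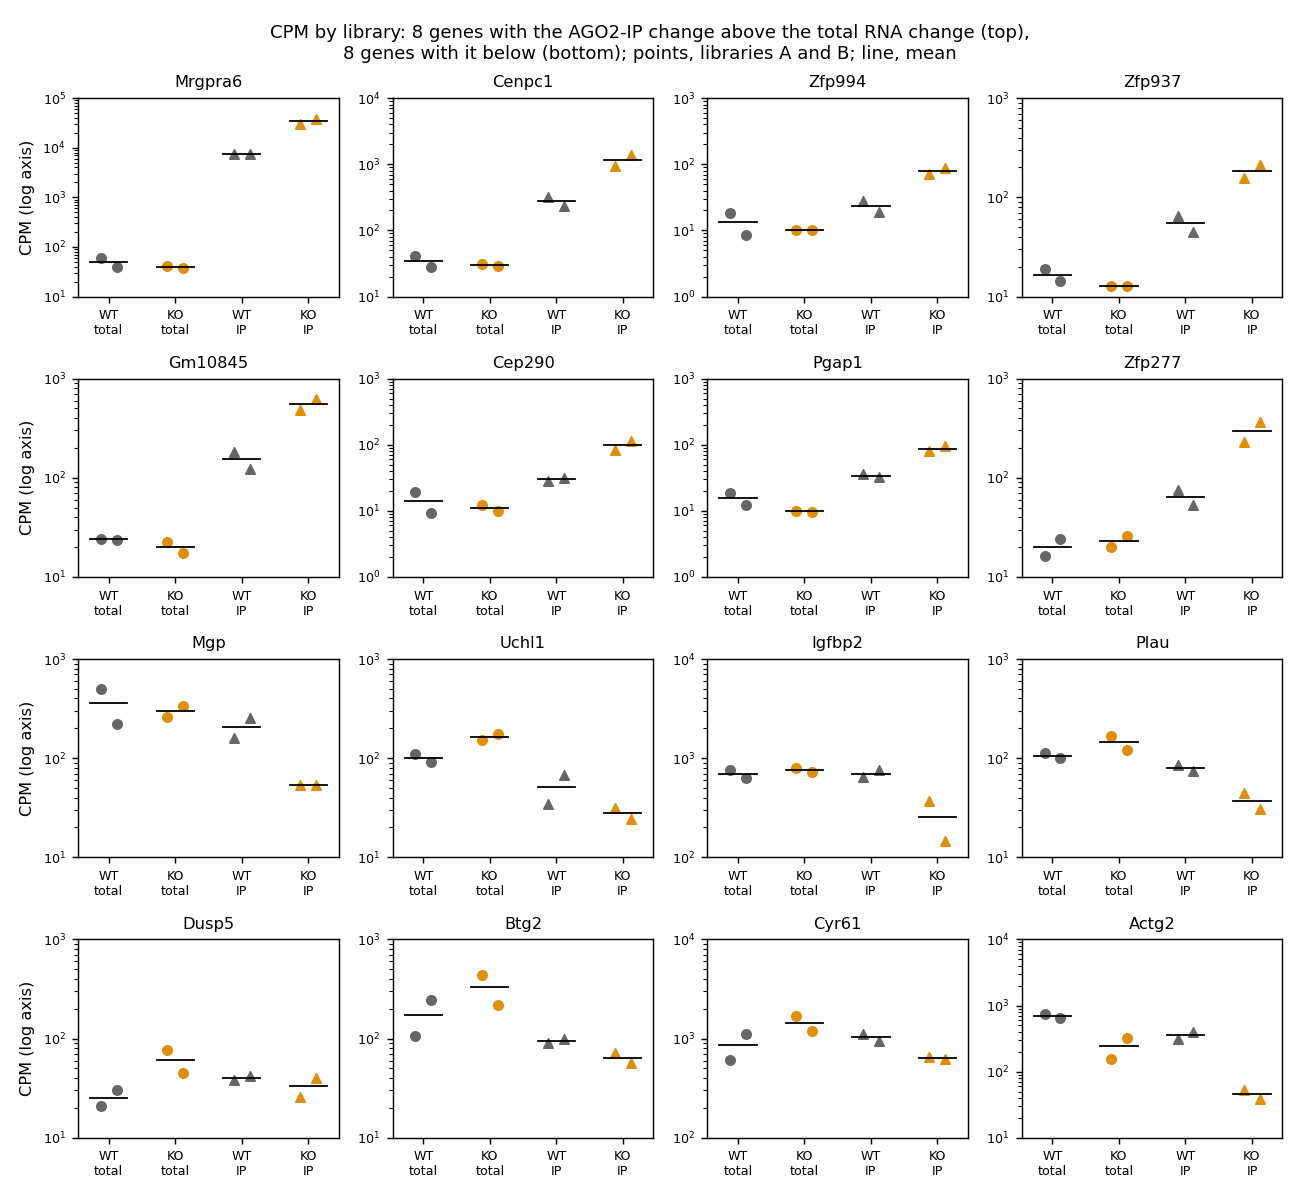
CPM in each library (log axis) for the 8 genes with the largest positive interaction (upper panels) and the 8 with the largest negative interaction (lower panels) by the naming rule. Circles are total RNA and triangles AGO2-IP, grey is WT and orange miR-379KO, and lines are means of replicates A and B; miR-379KO AGO2-IP lies above WT AGO2-IP in all 8 upper panels.

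The study named 8 candidate targets of miR-379, of which Edem3 was known from its earlier work, and 4 genes as negative controls. It chose the other candidates on these samples. The controls were taken because their AGO2-IP enrichment did not change significantly between the genotypes. The direction of either set is therefore not independent evidence, and the controls are not a neutral baseline. The study ranked new candidates by reads at the predicted site relative to the rest of the 3′-UTR, whereas the interaction counts reads over the whole gene. It also used hybrid reads for Fis1, AGO2-IP qPCR, reporters for Fis1 and Txn1, and Fis1 expression, which it reported as significantly higher in miR-379KO MMC. By qPCR all candidates but Slc20a1 were significantly lower in miR-379KO AGO2-IP. The values here do not test enrichment at those sites. If a transcript left AGO2 when miR-379 was lost, its interaction would lie below that of other genes. Of the 7 candidates among the 7768 genes (Vegfb had too few AGO2-IP counts), 0 passed in edgeR at either threshold, and their median was −0.23 with 2 of 7 above the member median of 0.08. The 4 controls also held 0 passing genes, with a median of 0.55 and 4 of 4 above the member median. The difference between these medians was −0.78. With an offset for exon length and GC content it was −0.23, because the controls' median moved from 0.47 to −0.17 relative to the member median while that of the 7 candidates stayed below it (−0.32 and −0.40). With Vegfb as the 8th candidate the differences were −0.79 and −0.10.

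Txn1, thioredoxin, which reduces protein disulfides, was the lowest candidate. Its AGO2-IP values were 69.9 and 106 CPM with WT and 64.2 and 50.2 with miR-379KO, and total RNA held 202, 218, 212 and 241 CPM. The AGO2-IP to total RNA ratios of the genotypes did not overlap, but the interaction of −0.72 ± 0.36 did not pass (edgeR unadjusted p-value 0.0635, adjusted 0.393). Fis1, a receptor of mitochondrial fission, had 20.3 and 22.4 CPM for WT AGO2-IP and 29.8 and 19.7 for miR-379KO AGO2-IP. It had 49.1, 73.3, 66.5 and 73.5 CPM in total RNA, so that both assays overlapped and the interaction was 0.03 ± 0.40, within its error of 0.

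Edem3, which takes part in degradation of misfolded glycoproteins, had nearly equal AGO2-IP values (126, 126, 134 and 115 CPM) and 118 and 58.0 compared to 66.7 and 53.6 CPM in total RNA (interaction 0.52 ± 0.40). Without WT total RNA A its value against the member median turned from 0.44 to −0.11. Slc20a1, a phosphate transporter, Hnrnpc, a nuclear RNA-binding protein, and Clta, a clathrin light chain, had interactions of −0.38 ± 0.36, −0.23 ± 0.39 and −0.24 ± 0.39. Ap3s1, a subunit of the AP-3 adaptor of vesicle transport, had 0.45 ± 0.39. Vegfb, a ligand of the VEGF family, had only 33 and 7 counts in WT AGO2-IP and 9 and 10 in miR-379KO AGO2-IP (interaction −0.39 ± 0.69).

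Hmgb1, a chromatin protein, was the highest control, with 124 and 140 CPM for WT AGO2-IP and 187 and 206 for miR-379KO AGO2-IP and overlapping total RNA (interaction 0.66 ± 0.37, edgeR adjusted p-value 0.439). Tcea1, a transcription elongation factor, had 50.1 and 66.6 compared to 75.7 and 93.2 CPM in AGO2-IP (0.58 ± 0.36). Snrpe, a core protein of spliceosomal snRNPs, and Rab14, a vesicle transport GTPase, had 0.52 ± 0.41 and 0.35 ± 0.34. In all 4 controls both miR-379KO AGO2-IP values lay above both WT values. That order is not particular to the controls. The median log2 CPM over all members was 5.39 and 5.41 in WT AGO2-IP and 5.46 and 5.50 in miR-379KO AGO2-IP. The AGO2-IP to total RNA ratios of the genotypes overlapped for Rab14, Snrpe and Tcea1, and did not for Hmgb1.

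**Figure D3:**
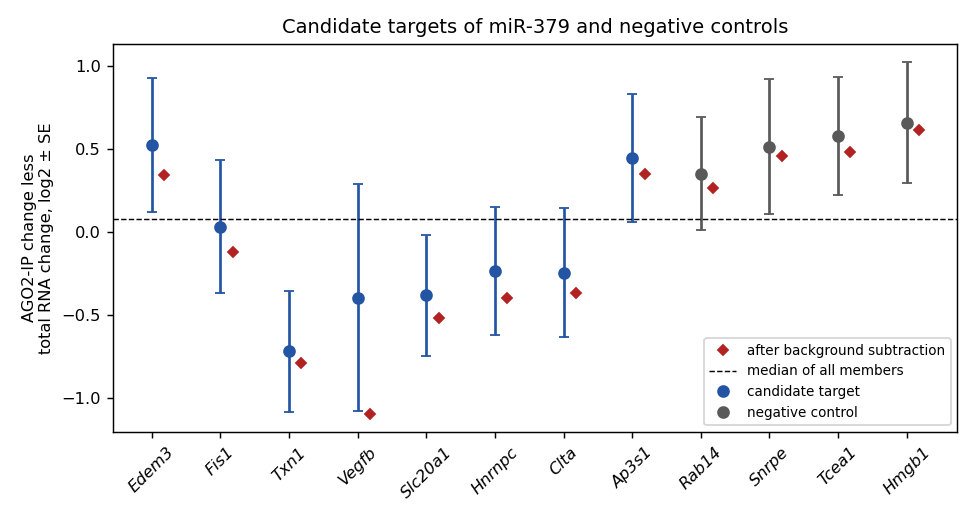
Interaction (log2, points) with its SE (bars) for the 8 candidate targets (blue) and 4 negative controls (grey), with red diamonds for the value after background subtraction and a dashed line at the median of the 7768 genes. Candidates lie on both sides of the line, from −0.72 for Txn1 to 0.52 for Edem3, and the controls lie at 0.35 to 0.66.

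Taken over all members, genes with a seed match to miR-379-5p did not have a lower median interaction than genes without it. A 3′-UTR was annotated for 7720 of the 7768 genes, and 389 of them (5.04%) held GTCTACC, the reverse complement of bases 2 to 8, on the transcript strand. Their median interaction was 0.24, compared to 0.07 for the 7331 without it, and 43 were higher and 10 lower at an unadjusted edgeR p-value under 0.05 (0 adjusted), or 11.1% and 2.57%, compared to 8.47% and 2.2% of all 7768 genes. After background subtraction the medians were −0.16 with and −0.25 without the match. By type of site the medians were 0.21 for 105 genes with GTCTACC followed by A, 0.24 for 284 with GTCTACC alone, 0.29 for 558 with only TCTACC followed by A, 0.15 for 1064 with TCTACC alone and 0.04 for 5709 with none. Genes with the site had longer 3′-UTRs (median 2426 compared to 1237 bases).

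Within quartiles of 3′-UTR length the difference changed sign. In the longest quartile, 198 genes with GTCTACC had a median of 0.37, compared to 0.36 for 1732 without. In the next quartile the medians were 0.11 for 110 genes and 0.16 for 1820, then −0.21 for 61 and −0.02 for 1869, and in the shortest quartile 0.06 for 20 genes and −0.20 for 1910. After background subtraction, genes with the match had the lower median in 3 of the 4 quartiles (−0.04 compared to −0.02 in the longest, then −0.24 to −0.17 and −0.54 to −0.31) and the higher in the shortest (−0.16 compared to −0.44). Seed matches to the 8 other microRNAs examined (the star strand miR-379-3p, miR-411-5p, miR-495-3p and miR-377-3p of the same cluster, and let-7a-5p, miR-21a-5p, miR-29a-3p and miR-199a-3p) also went with higher medians, between 0.20 and 0.35. Cep290 and Btg2, whose sites are shown above, had interactions of 2.08 and −1.48 with the same match.

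The interaction was ordered by the base composition of the transcript. In quartiles of exon GC content, the median fell from 0.51 in the lowest (35.0% to 45.3% GC) to 0.20, −0.09 and −0.23 in the highest (54.6% to 70.9%). The lowest quartile held 444 of the genes higher and 3 of those lower at an unadjusted edgeR p-value under 0.05, and the highest quartile 15 and 107. The Spearman correlation across 7758 genes was −0.56, and −0.60 after background subtraction. Genes in 1 library share its depth and composition and are not independent replicates, so no p-value is given.

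The gradient was in AGO2-IP. In each library, the median log2 CPM of the lowest GC quartile less that of the highest was −0.04 and 0.09 for WT AGO2-IP and 0.53 and 0.73 for miR-379KO AGO2-IP, with no overlap. In total RNA it was 0.30 and −0.33 for WT and −0.22 and −0.16 for miR-379KO, so WT A was the high library and the genotypes overlapped. The Spearman correlation with GC was −0.53 for the AGO2-IP change and 0.26 for the total RNA change. The difference between the replicates of WT total RNA had a Spearman correlation of −0.43 with GC. Without WT total RNA A, the Spearman correlation of the interaction (from mean log2 CPM) was −0.37 and the lowest and highest quartiles had medians of 0.28 and −0.14, compared to −0.55 with all libraries. The correlation with total RNA level was then −0.46, and so the stronger one, as it was without WT AGO2-IP A (−0.51, against −0.44 with GC).

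Longer transcripts had higher interactions too. Quartiles of exon length had medians of −0.24, 0.01, 0.17 and 0.35 from short to long (Spearman correlation 0.44, and 0.29 after subtraction). This order leaned on WT total RNA A, without which the correlation was 0.16. Its 2 replicates differed by length with a Spearman correlation of 0.57. Within each quartile of length the low-GC members still lay above the high-GC members, at −0.06 compared to −0.41 in the shortest and 0.59 compared to 0.14 in the longest.

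Weakly expressed genes had higher interactions before subtraction and nearly the same interactions after it. By total RNA level the quartile medians were 0.42, 0.16, 0.03 and −0.21 from low to high, and −0.15, −0.23, −0.22 and −0.33 after background subtraction (Spearman correlation −0.45 and −0.10). Genes most recovered by AGO2-IP relative to total RNA had a median of 0.42 and those least recovered −0.24. That ratio and the interaction come from the same libraries.

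**Figure D4:**
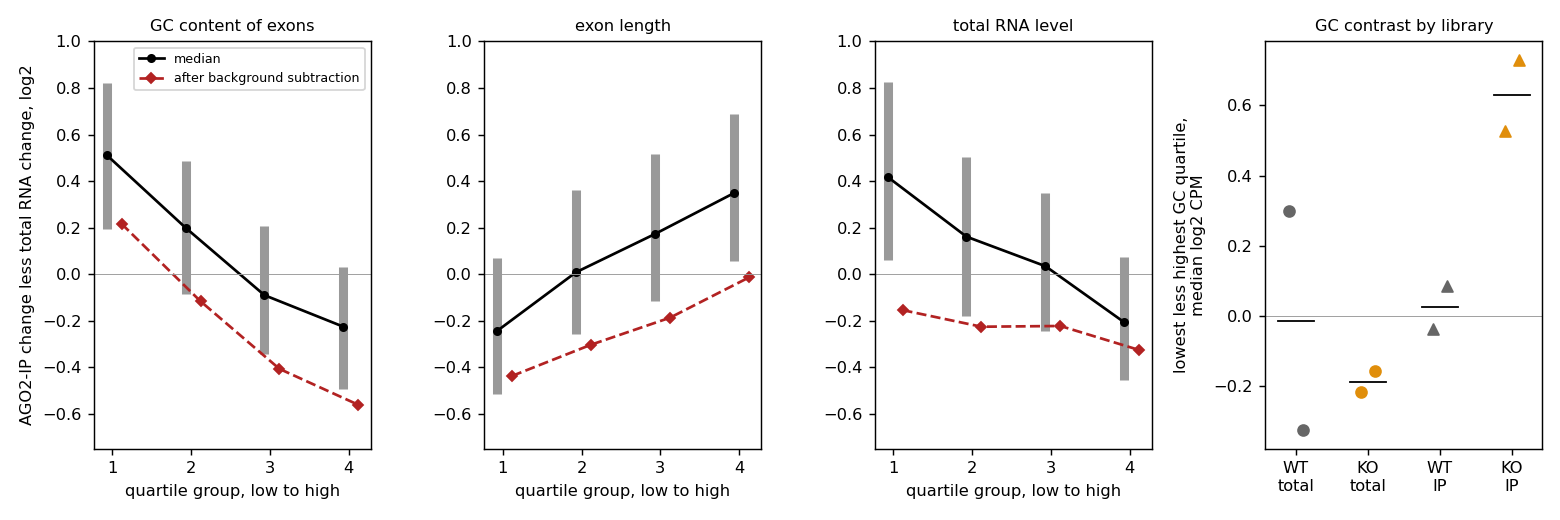
Median interaction (black, with grey interquartile bars) and median after background subtraction (red) in quartile groups of exon GC content, exon length and total RNA level, and, in the right panel, the median log2 CPM of the lowest GC quartile less that of the highest in each library. The GC gradient keeps its steepness after subtraction while the gradient with total RNA level flattens from 0.42 and −0.21 to −0.15 and −0.33, and both miR-379KO AGO2-IP libraries lie above all others in the right panel.

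Gene groups with housekeeping and contractile roles lay below the member median. At an unadjusted edgeR p-value under 0.05, 8.47% of the 7768 genes were higher and 2.2% lower (12.9% and 1.06% of all genes tested). The share of each group is given beside its count below, and most of these counts are of few genes. The offset for exon length and GC content brought some groups close to that median: relative to it, collagens and basement membrane proteins moved from −0.36 to −0.0094, TGF-beta genes from −0.21 to −0.04 and silencing complex genes from 0.15 to 0.0073, whereas contractile (−0.75 and −0.56), immediate early (−0.95 and −0.96) and glycolysis genes (−0.65 and −0.52) stayed apart from it. Respiratory chain subunits moved from −0.54 to −0.36, mitochondrial ribosomal proteins from −0.13 to −0.06, chromatin regulators from 0.07 to 0.23 and splicing factors from −0.10 to −0.38. Of 26 smooth muscle contractile genes measured, 0 lay above the member median and 0 passed the adjusted threshold in edgeR. At an unadjusted p-value under 0.05, 4 (15.4%) were lower, where 2.2% of the 7768 genes were. Their median was −0.67 (−0.78 after subtraction). In each library their median log2 CPM, less that of all 7768 genes, was 4.06, 4.41, 4.47 and 4.70 in total RNA of WT A, WT B, miR-379KO A and miR-379KO B. It was 3.49 and 3.44 for WT AGO2-IP and 3.13 and 2.61 for miR-379KO AGO2-IP, which did not overlap. Flna, filamin A, the member with the most AGO2-IP, had −0.45 ± 0.41, and Myh10, a non-muscle myosin heavy chain, had −0.12 ± 0.63. The group's median total RNA change was 0.11 and its median AGO2-IP change −0.53. The cause was not tested.

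Cytosolic ribosomal protein genes, which are short and abundant, had a median of −0.54 over 75 measured, with 0 above the member median. At an unadjusted edgeR p-value under 0.05, 3 (4.0%) were lower, and 0 passed the adjusted threshold. Rplp2 was the lowest, with 81.6 and 85.9 CPM for WT AGO2-IP and 42.8 and 41.2 for miR-379KO AGO2-IP (interaction −1.23 ± 0.40). Rps2 and Rpl7 had −0.26 ± 0.45 and 0.07 ± 0.38. Their total RNA set WT A apart: the group's median log2 CPM less that of all 7768 genes was 2.69 in WT A, 3.52 in WT B and 3.15 and 3.73 in miR-379KO. AGO2-IP values did not overlap (2.03 and 2.2 in WT, 1.87 and 1.79 in miR-379KO), but the AGO2-IP to total RNA ratios of the genotypes did. Mitochondrial ribosomal protein genes had a median of −0.05 over 42 with 2 (4.76%) higher and 0 lower. The group turned above the member median without WT total RNA A or miR-379KO total RNA B. Mrpl12 and Mrpl35 marked their range at −1.03 ± 0.76 and 1.30 ± 0.42.

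Respiratory chain subunits had a median of −0.46 over 70 measured, with 4 above the member median. At an unadjusted edgeR p-value under 0.05, 6 (8.57%) were lower (0 adjusted), compared to 2.2% of the 7768 genes. Relative to all 7768 genes their median log2 CPM was −0.45 and −0.22 in WT AGO2-IP and −0.66 and −0.83 in miR-379KO AGO2-IP, and the AGO2-IP to total RNA ratios did not overlap. Ndufb7, a complex I subunit, was lowest (−1.17 ± 0.46), and Atp5b, the ATP synthase beta subunit and the member with the most AGO2-IP, had 366 and 478 CPM in WT AGO2-IP compared to 336 and 305 (−0.72 ± 0.41). Glycolysis genes had a median of −0.57 over 17, with 2 (11.8%) lower and 0 adjusted. Gapdh had 636 and 809 CPM for WT AGO2-IP and 488 and 480 for miR-379KO AGO2-IP (−0.73 ± 0.40). The lactate carrier Slc16a3 was lowest (−1.16 ± 0.37) and the related carrier Slc16a1 highest (1.05 ± 0.76). Slc16a1 had 0.39 after subtraction, with background at 51.3% of its miR-379KO AGO2-IP counts. Proteasome subunits had a median of −0.31 over 37 with 1 (2.7%) lower, with Psmd3 at −0.78 ± 0.35 and Psme4 at 0.37 ± 0.34.

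Immediate early transcription factors had the lowest median of all groups, −0.86 over 21. At an unadjusted edgeR p-value under 0.05, 5 (23.8%) were lower, and 0 passed the adjusted threshold. Egr1, a zinc-finger transcription factor induced by growth signals, was lowest at −2.08 ± 1.24, and its spread was wide. It had 74.9 and 415 CPM for WT total RNA and 707 and 392 for miR-379KO total RNA, while AGO2-IP had 139 and 104 for WT and 60.4 and 69.0 for miR-379KO. AGO2-IP separated the genotypes and total RNA did not. Klf10 was highest (0.44 ± 0.43) and Fosl2, with the most AGO2-IP, overlapped in both assays (edgeR unadjusted p-value 0.995). The group's median total RNA change was 0.53 and its median AGO2-IP change −0.20, so the total RNA change was the larger. Its library medians of log2 CPM, less that of all members, were 0.16 and 0.83 in WT total RNA. They were 1.21 and 0.65 in miR-379KO total RNA. These library medians overlapped between genotypes in total RNA and in AGO2-IP, and so did the AGO2-IP to total RNA ratios.

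Matrix and matrix-turnover genes were mixed. Collagens and basement membrane proteins had a median of −0.28 over 38. At an unadjusted edgeR p-value under 0.05, 2 (5.26%) were higher and 4 (10.5%) lower. Of the higher genes 1, Postn, was past the adjusted threshold. Fn1, fibronectin, the most abundant of them in AGO2-IP, had 51982 and 43816 CPM for WT AGO2-IP and 26748 and 23569 for miR-379KO AGO2-IP, whereas total RNA held 16773, 13177, 13958 and 12318. AGO2-IP did not overlap, but the interaction of −0.74 ± 0.46 did not pass (edgeR adjusted p-value 0.499). Plasminogen activators, matrix proteases and inhibitors had a median of −0.48 over 27, with 3 (11.1%) lower and 0 adjusted. They ran from Plau to Mmp19 (0.98 ± 0.53, and 0.33 after subtraction). TGF-beta pathway genes and targets had a median of −0.13 over 28 with 3 (10.7%) lower and 0 adjusted, between Cyr61 and Smad5 (0.65 ± 0.33). From library medians the interaction of this group was 0.07, also with overlapping ratios. Thbs1, thrombospondin, had 14186 and 19545 CPM for WT AGO2-IP and 10839 and 9697 for miR-379KO AGO2-IP (−0.67 ± 0.47).

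ER chaperones and unfolded protein response genes had a median of −0.22 over 33 with 2 (6.06%) lower and 0 adjusted. Ddit3 (CHOP) was lowest at −0.85 ± 0.38, and the chaperone Hsp90b1 had −0.35 ± 0.38. Sterol synthesis genes had a median of −0.25 over 19, with 3 (15.8%) higher, 1 (5.26%) lower and 0 adjusted. Idi1, an isomerase of the mevalonate pathway, was highest (2.11 ± 0.51, edgeR adjusted p-value 0.11). It had 8.0 and 8.1 CPM for WT AGO2-IP and 26.8 and 37.6 for miR-379KO AGO2-IP, with overlapping total RNA. Its AGO2-IP counts were only 15 and 13 in WT, compared to 35 and 42 in miR-379KO, so it was kept through miR-379KO. Dhcr7 was lowest (−0.98 ± 0.52). It had −3.16 after subtraction, with background at 81.3% of its miR-379KO AGO2-IP counts. Cell cycle genes had a median of −0.19 over 39 with 2 (5.13%) higher and 2 (5.13%) lower. The group turned above the member median without miR-379KO total RNA B or miR-379KO AGO2-IP A. Tyms, thymidylate synthase, had 599 and 372 CPM for WT AGO2-IP and 1495 and 2099 for miR-379KO AGO2-IP with 23.8, 40.9, 23.0 and 41.7 in total RNA (1.89 ± 0.50, edgeR adjusted p-value 0.144), and the mitotic kinase Plk1 had −1.01 ± 0.44.

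Groups with long or nuclear transcripts lay near or above the member median. Genes of microRNA processing and the silencing complex had a median of 0.23 over 31, with 3 higher (9.68%, compared to 8.47% of all 7768 genes), 0 lower and 0 adjusted in edgeR, and 20 of 31 above the member median. Cnot6l, a deadenylase subunit, was highest (1.15 ± 0.40), Tarbp2, a partner of Dicer, lowest (−0.60 ± 0.45), and Tnrc6b, a GW182 protein that binds AGO2, had 0.27 ± 0.37. Their library medians overlapped in AGO2-IP. Chromatin regulators with long transcripts had a median of 0.15 over 54 with 6 (11.1%, compared to 8.47%) higher, 0 lower and 34 above the member median. They ran from Brd2 (−0.62 ± 0.35) to Kdm6a (1.18 ± 0.36), and the group turned below the member median without WT total RNA A. Kmt2d, with the most AGO2-IP, had −0.21 ± 0.37. Splicing factors had a median of −0.02 over 49, with 1 (2.04%) higher, and turned above the member median on background subtraction. Srsf4, Luc7l2 and Srrm2 had −0.55 ± 0.37, 0.85 ± 0.39 and −0.14 ± 0.35, and Srsf4 had −1.34 after subtraction.

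Nuclear long non-coding RNAs had a median of 0.18 over 7 with 1 (14.3%) higher and 0 adjusted, and stayed above the member median in 18 of 26 alternatives. Malat1 had 22444 and 19693 CPM for WT AGO2-IP and 17152 and 20178 for miR-379KO AGO2-IP, whereas total RNA held 860, 384, 492 and 480, and the genotypes overlapped in both (0.18 ± 0.50). Kcnq1ot1 was highest, with 463 and 303 compared to 644 and 888 CPM in AGO2-IP (1.27 ± 0.44, edgeR adjusted p-value 0.229). Rian, which lies upstream of miR-379 in the same imprinted region of chromosome 12 (109603945 to 109661716), was lowest, with 290 and 267 CPM for WT AGO2-IP and 174 and 208 for miR-379KO AGO2-IP and overlapping total RNA (−0.73 ± 0.37, edgeR adjusted p-value 0.393). The 5 snoRNA host transcripts measured had a median of 0.01, below the member median in 21 of 26 alternatives, with Snhg6 at −0.30 ± 0.43, Snhg1 at 0.30 ± 0.40 and Gas5 at 0.01 ± 0.33.

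**Figure D5:**
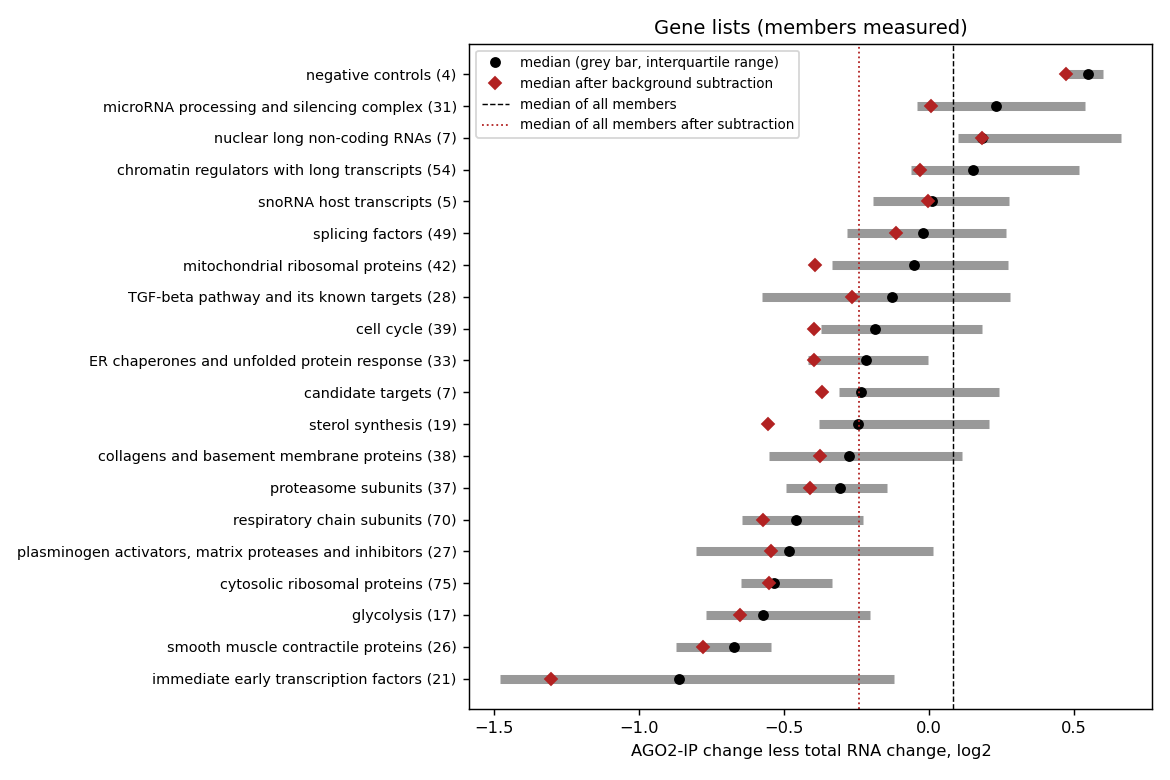
Median interaction of each gene list (black points, with grey interquartile bars and the number of genes measured) and its median after background subtraction (red diamonds), with lines at the medians of the 7768 genes before (0.08) and after (−0.24) subtraction. Immediate early, contractile, glycolysis and cytosolic ribosomal protein genes lie lowest, and the negative controls (below the member median only with the offset for length and GC) and silencing complex genes highest.

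Among the marker sets, mesangial or pericyte markers were the highest in total RNA, and some podocyte and tubular markers were counted too. The 12 mesangial or pericyte markers summed to 17993 to 23557 CPM in WT and 25090 to 26606 CPM in miR-379KO total RNA, mostly Acta2, Tagln and Vim. Others were low in total RNA: Thy1 had 0 to 3 counts, Pdgfra 4 to 6, Itga8 7 to 38 and Gata3 33 to 70. In AGO2-IP the same markers summed to 7561 to 9550 CPM in WT and 5534 to 7197 in miR-379KO. The 7 measured had a median interaction of −0.59 with 1 (14.3%) lower and 0 adjusted. Des, desmin, was the lowest (total RNA counts 1801 and 14442 for WT, 5000 and 2252 for miR-379KO, interaction −1.29 ± 1.94) and Foxd1 the highest (0.17 ± 1.65). Podocyte markers, mostly Synpo (3561 to 10980 counts) and Wt1 (527 to 1566), summed to 269 to 685 CPM in WT and 340.4 to 618 in miR-379KO total RNA. Tubular markers summed to 6.57 to 57.6 CPM in WT and 31.8 to 46.4 in miR-379KO total RNA. Lrp2 had 24 to 472 counts there, Cdh16 9 to 368 and Aqp1 66 to 611. Macrophage markers summed to at most 5.67 CPM in total RNA but to 26.8 to 27.7 in WT AGO2-IP and 71.9 to 106 in miR-379KO AGO2-IP, tubular markers to 36.8 to 44.8 and 121 to 168, and endothelial markers to 31.1 to 73.6 and 74.9 to 88.7. Umod and Slc34a1, defining tubular genes, and the podocyte gene Ptpro had 0 counts in all total RNA libraries, yet Umod had 2, 4, 8 and 10 counts in WT A, WT B, miR-379KO A and miR-379KO B AGO2-IP. Podocyte markers overlapped between genotypes in both assays (140 to 395 and 234 to 396 CPM in AGO2-IP), with Wt1 and Synpo at −0.29 and 0.18. The only measured endothelial and tubular markers, Flt1 and Lrp2, had interactions of −0.33 and 2.2, and −5.91 and 1.92 after background subtraction. The part of these differences in the results above was not tested.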

How the data were processed

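Total RNA and AGO2-IP were sequenced from untreated WT and miR-379KO MMC (8 libraries, 2 per group). The authors aligned reads with TopHat (Bowtie2 2.1.0.1 in the submitters' processing notes) to mm10 and deposited counts per RefSeq gene from HTSeq 0.6.0, strand-specific and unnormalised. AGO2-IP came from UV cross-linked lysates and was ligated to small-RNA adapters, whereas total RNA used a stranded mRNA kit. What this difference does to the values was not tested.

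Counts were fitted with edgeR 4.0.16 (R 4.3.3; robust quasi-likelihood, 4 group means, filterByExpr with a minimum count of 10). Library sizes were gene counts without Rn45s and Lars2, with no further factors, and p-values were adjusted by Benjamini-Hochberg over 18193 genes. AGO2-IP libraries held 1115782 to 1875037 such counts, against 15524220 to 21343458 in total RNA, and limit precision. Background was counts per kb on protein-coding genes with no total RNA count, subtracted by exon length with a floor of 0.5 counts. Exons, 3′-UTRs, sequences and coordinates came from RefSeq on GRCm38.p6. Of the 24639 entries 23616 matched by symbol and 716 by synonym, 306 were left without annotation, and 7758 of the 7768 genes had an exon length. The longest annotated 3′-UTR was searched on its own strand. Per-library ratios were taken under every pairing of libraries.

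The genes and lists were chosen with earlier results of these data known. Named genes were the study's candidates and controls, the 8 largest interactions in each direction among genes with at least 50 mean AGO2-IP counts, unadjusted p under 0.05 and ratios that did not overlap, and the lowest, highest and most AGO2-IP-abundant gene of each list. Alternatives were other scalings, filters, tools (DESeq2 1.42.0, limma 3.58.1), replicate blocks, a GC and length offset (lowess span 0.3) and leaving out each library. The interaction test was run on simulated data with a dispersion of 0.05, with changes set in genes with at least 50 mean AGO2-IP counts. At the adjusted threshold it called 6% and 8% of genes with a true log2 interaction of −1 and 1. It called 56% and 74% of those at −2 and 2. A count of 0 passing genes therefore does not show that nothing changed. Entries with no gene name were left out of library sizes; uniquely placed reads outside genes were 6.41% to 8.81% of unique reads in total RNA, 46.6% and 49.7% in WT AGO2-IP and 73.4% and 76.4% in miR-379KO AGO2-IP. A few genes that the naming rule or the marker lists select are not reported here.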

Additional observations from a re-analysis of the deposited data

Results flagged for a closer look

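The genotype effect differed between AGO2-IP and total RNA, by the test of the difference itself (edgeR's quasi-likelihood interaction, Benjamini-Hochberg adjusted), in 8 of the 7768 genes. The log2 interaction was 2.51 for Mrgpra6, 2.28 for Cenpc1, 2.11 for Zfp937, 2.11 for Gm10845, 2.0 for Pgap1, 1.92 for Ccdc82, 1.92 for Fut8 and 1.75 for Postn. In all 8 the AGO2-IP to total RNA ratio of both miR-379KO replicates lay above that of both WT replicates under any pairing, as it did for 17.5% of the 7768 genes and 38.2% of all genes tested.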

How the results depend on the processing

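The 8 adjusted calls depended on the fit. There were 0 with TMM factors over all tested genes, RLE factors, limma-trend, voom or a fit restricted to the 7768 genes (also 0 there with TMM factors, an alternative added after seeing the data), 4 at thresholds of 500 total RNA and 50 AGO2-IP counts, 14 at 100 and 10, 28 in DESeq2, 45 with no filter and 654 with Rn45s and Lars2 left in the totals. Leaving out 1 library gave 0 to 453 adjusted calls, 413 to 2065 genes at the study's cutoff (829 with all) and medians of 0.0345 to 0.12. The highest counts were without WT total RNA B, and the count was 35 without WT total RNA A. The count at the cutoff was 1956 with TMM, 1809 with full totals, 537 in DESeq2 and 350 at 500 and 50 counts. The member median moved to −0.52 (TMM), −0.24 (RLE), −0.0202 (TMM on members), −0.0203 (the same in the restricted fit), 0.61 (full totals), 0.14 and −0.0091 (lower and higher thresholds) and −0.24 (background subtracted). The 8 candidates less controls ranged from −0.96 to −0.49 on leaving out 1 library.

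The offset for GC content and exon length gave 1180 adjusted calls, 1179 of them lower and none among the 8, 4021 at the cutoff, a median of −0.83 and −0.10 for the 8 candidates less controls (−0.23 without Vegfb). Relative to the member median the controls Rab14 (−0.28), Snrpe (−0.0703), Tcea1 (−0.26) and Hmgb1 (−0.0714) changed sign. So did the candidates Ap3s1 (−0.40), Fis1 (0.23) and Vegfb (0.034), and Kcnq1ot1 (−0.15) and several others among the list genes. Without WT total RNA A, Edem3 changed sign (−0.11, in a range of −0.11 to 0.85 over the libraries left out). Ap3s1, Fis1, Clta and some list genes also changed sign without that library. The cause was not tested.

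A letter does not pair the samples by the labels. Correlations of same-letter deviations between groups ran from −0.07 to 0.27 over 7768 genes. A replicate block by letter gave 29 adjusted calls, and pairing by culture 213 (1294 at the cutoff; 69 adjusted when restricted to the 7768 genes, an alternative added after seeing the data). All 8 calls were among them in each of these blocks without the offset. The letter block with the offset gave 1889 (1887 lower, 0 of the 8) and 4222, a median of −0.83 and −0.13 for the 8 candidates less controls, with Edem3 (−0.0125), Ap3s1 (−0.43), Rab14 (−0.29), Snrpe (−0.0447), Tcea1 (−0.25), Hmgb1 (−0.0292) and Kcnq1ot1 (−0.15) below the member median.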

Other observations

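The 145 measured genes with a Zfp symbol, a class chosen after its values were seen, had a median interaction of 0.35. At an unadjusted edgeR p-value under 0.05, 23 of the 145 were higher and 0 lower, where 8.47% and 2.2% of all 7768 genes were. Their median was −0.16 after background subtraction, compared to −0.24 for all 7768 genes. By chromosome, the 533 genes of chromosome 7 had the lowest median (−0.14, median GC 53.9%) and the 227 genes of chromosome X the highest (0.31, median GC 46.0%) among chromosomes with more than 5 measured genes.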
